A study of Mus musculus with 2 samples.

Results

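Small nucleolar RNAs (snoRNAs) and small Cajal body RNAs (scaRNAs) were taken as every probe set with exactly 1 platform gene symbol that starts with Snord, Snora or Scarna and goes on with a digit. This gave 81 probe sets for 78 symbols, of 41345 probe sets on the array and 23521 with exactly 1 symbol. Of the 81, 47 were box C/D snoRNAs (Snord), 28 box H/ACA snoRNAs (Snora) and 6 scaRNAs (Scarna). Each probe set was kept. The rule takes names alone and no measured value, though it was set with earlier results of these data known.

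Box C/D snoRNAs guide 2'-O-methylation and box H/ACA snoRNAs guide pseudouridylation, mostly of ribosomal RNA in the nucleolus, and a few of them instead take part in cutting the ribosomal precursor. The scaRNAs do the same work on the RNAs of the spliceosome in Cajal bodies, and carry box C/D elements, box H/ACA elements or both. Most mammalian snoRNAs lie in introns of a host gene and are trimmed out of the spliced intron, so a snoRNA can be stable while its host's spliced transcript is scarce, or the reverse. A set of core proteins binds each class and protects it from decay.

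The series has 2 Affymetrix whole-transcript mouse arrays of spleen cells from Fx-/- mice. The Fx gene (current symbol Gfus) makes GDP-fucose from a mannose precursor, the deletion is shared by both arrays, and such mice depend on fucose from outside. The on-fucose array held RNA of fucose-treated Fx-/- mice and the off-fucose array RNA of Fx-/- mice with no fucose treatment, and both were labelled cDC1 (conventional type 1 dendritic cells). Freshly isolated splenocytes were depleted with antibodies to B220 and CD11b and then selected for CD11c on beads, and RNA from an RNeasy Mini column was labelled from 9 ng. The age, sex and strain of the mice, how fucose was given, and the number of mice behind each array are not given in the sources used here. Column kits of this kind retain RNA as short as snoRNAs poorly, so an intensity here can hold mature snoRNA, longer precursor and intron RNA together. In RNA from a mixed cell preparation, fewer cells of a type and less RNA per cell cannot be told apart.

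With 1 array per group there is no replicate check, no test and no SD, and every difference below is off fucose minus on fucose in log2 intensity. For scale, all probe sets with 1 symbol were put in 20 bins of like mean level, and the robust SD of their differences was taken in each, from 0.17 to 0.34. Technical and biological differences both enter it. The markers of the labelled cell type were mixed. Xcr1, a chemokine receptor found on cDC1, had 2.90 on fucose and 3.43 off fucose, and the dendritic cell factor gene Zbtb46 had 2.84 and 2.98, near the array medians of 2.81 and 2.82. Irf8, a transcription factor gene of cDC1 and of some other myeloid cells, had 4.18 and 6.68, while a dimmer Irf8 probe set had 2.81 and 3.02. Batf3 had 4.58 and 5.49, and Naaa had 5.97 and 8.36. The 11 measured cDC1 markers summed to intensities of 565 and 957, with 9 higher off fucose (4 by 2-fold or more) and 2 lower. The 2 lower ones were Cd8a (8.37 and 8.22) and Itgae (6.02 and 5.64). Cd8a was the brightest of the 11 on fucose, so that sum follows it more than the other markers. The 8 measured T cell markers ran from 7.17 to 11.20 on fucose and from 6.85 to 11.05 off fucose. Markers of other cells moved with the groups. All 9 granulocyte precursor markers were higher off fucose (7 at least 2-fold), as were all 7 erythroid markers (7 at least 2-fold) and all 7 markers of dividing cells (6 at least 2-fold). Their summed intensities went from 109 to 2917, from 79.9 to 514 and from 127 to 517. All 8 T cell markers were lower off fucose, with a median difference of -0.29, and their summed intensity went from 10858 to 8970. The 4 measured B cell markers summed to 51.4 and 43.2. The part of these shifts in the snoRNA values was not tested.

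No sequence of a snoRNA itself was used here. To show where the snoRNAs with the largest differences come from, the 50 bases around the RefSeq start of 4 genes that span them are printed below (GRCm38.p6, 30 bases before the start and 20 from it on, 5' to 3' on the gene's strand), with runs of 7 or more C or T in capitals. Many host genes are known to begin their transcripts with a pyrimidine run, which ties translation to nutrient supply. Snhg1 spans Snord22 and lies on the plus strand at chr19:8723457-8723506, Snhg12 spans Snord99 at chr4:132308648-132308697 (plus), Eif5 spans Snora28 at chr12:111538071-111538120 (plus) and Eif4g1 spans Snord66 at chr16:20672697-20672746 (plus).
Snhg1: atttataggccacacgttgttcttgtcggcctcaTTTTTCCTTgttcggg
Snhg12: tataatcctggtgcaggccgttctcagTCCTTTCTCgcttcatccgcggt
Eif5: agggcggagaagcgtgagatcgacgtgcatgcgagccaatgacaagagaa
Eif4g1: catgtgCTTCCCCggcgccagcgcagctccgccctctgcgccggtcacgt
The runs of Snhg1 and Snhg12 are 9 bases long and begin at base 5 and base -3 from the start. On the gene's strand, 15 of 42 spanning genes with such a window (35.7%) hold a run of 7 or more, against 9049 of 27025 genes in the table (33.5%). This count takes a run anywhere in the window, bases before the start included, such as that of Eif4g1 at base -24, and so does not measure runs at the first base of a transcript.

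Snord22 and Snord99 of the box C/D class and Snora28 of the box H/ACA class were higher off fucose by 2-fold or more, and of the 81 probe sets only the box C/D snoRNA Snord66 was lower by as much. Both larger classes had most members higher off fucose, by small amounts. Of the 47 box C/D probe sets, 29 were higher and 18 lower off fucose, with a median difference of 0.14, and of the 28 box H/ACA probe sets, 17 were higher and 11 lower, with a median of 0.13. The 6 scaRNA probe sets went the other way, with 2 higher, 4 lower and a median of -0.23. Over all probe sets with 1 symbol the median was 0, with 47.8% above it and 49.9% below. Of the 81 members, 48 (59.3%) were above 0 and 33 below.

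**Figure D1:**
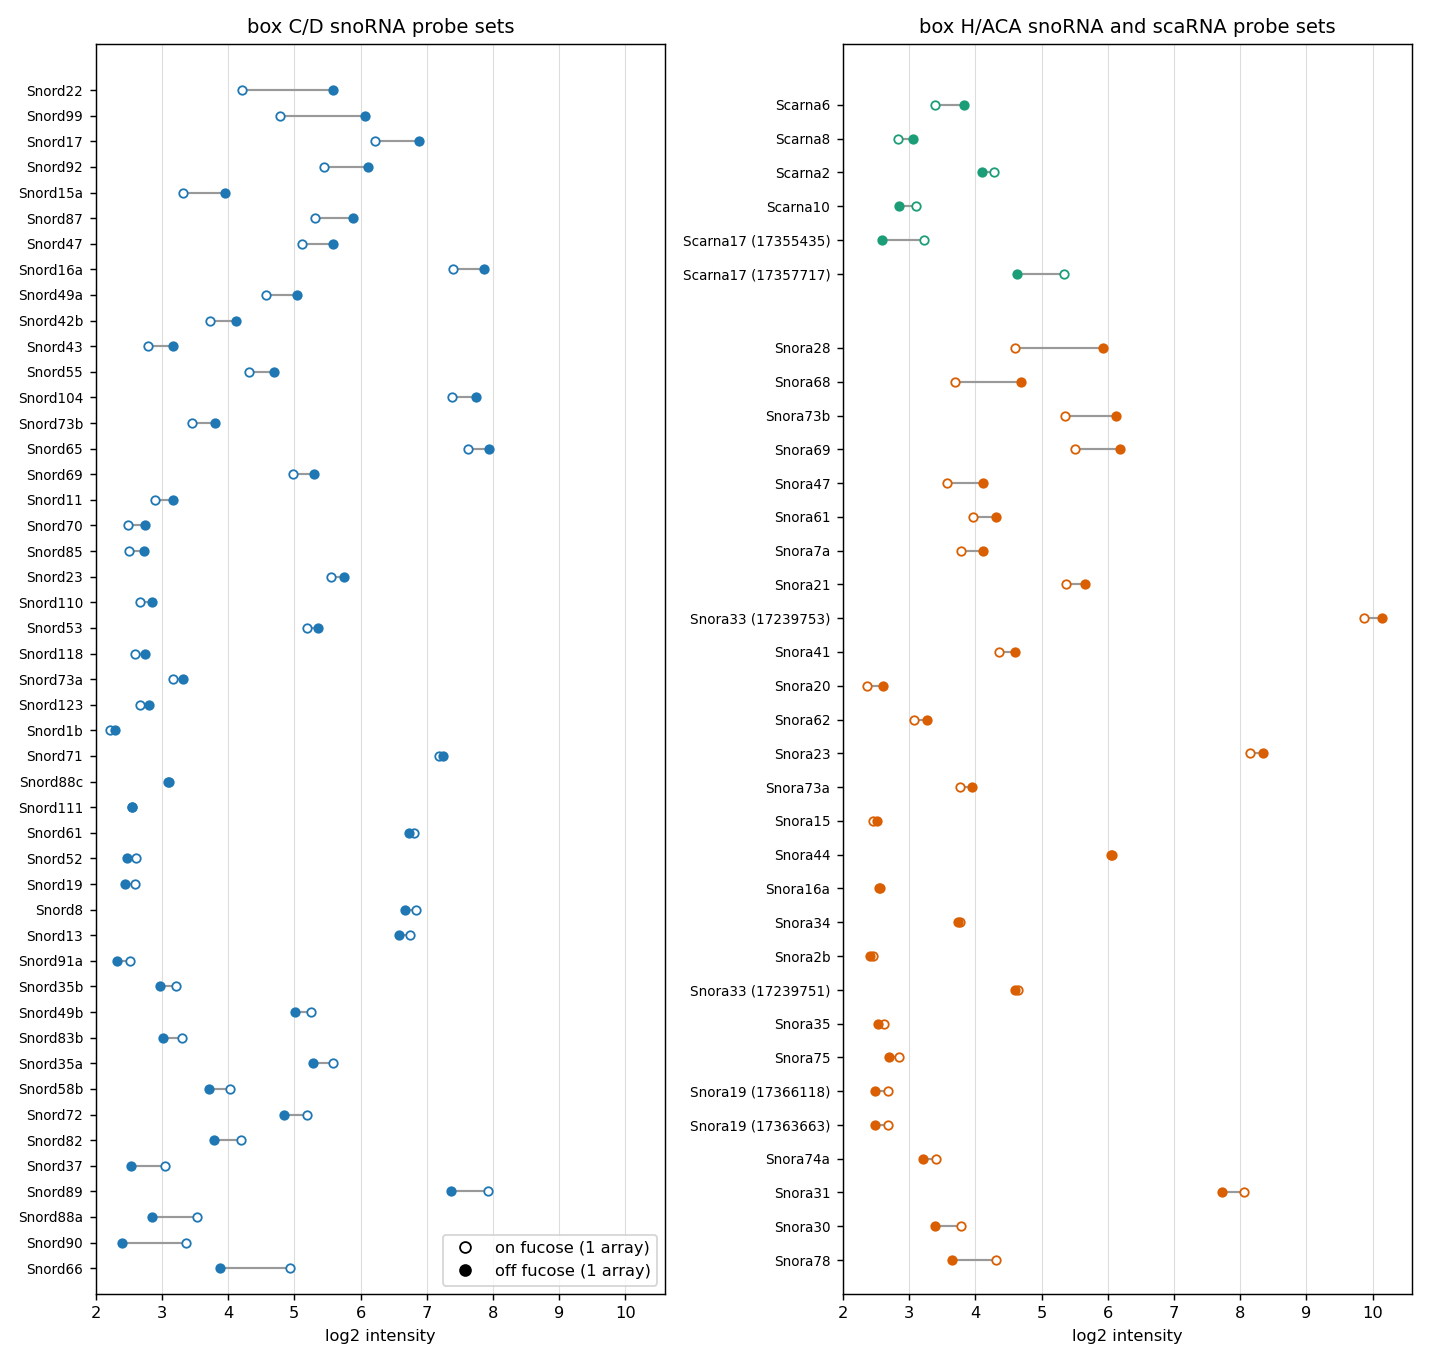
Log2 intensity of each of the 81 probe sets on the on-fucose array (open circles) and the off-fucose array (filled circles), 1 array each, ordered by difference within each class. Filled circles lie to the right of the open ones for 48 probe sets, and the longest bars belong to Snord22, Snora28, Snord99 and Snord66.

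Differences of 2-fold were rare. Off fucose, 3 of 81 members (3.70%) were higher by 2-fold or more, against 1.16% of all probe sets with 1 symbol, and 1 member (1.23%) was lower by as much, against 0.255%. With a mean of at least 5, where members pass partly through the array on which they are high, 2 of 27 were higher and 0 lower, against 1.91% and 0.515% of 5246 probe sets. At 1.5-fold, 9 members were higher (11.1%; 3.15% of all) and 6 lower (7.41%; 2.28% of all). Members sit at higher levels than probe sets at large, where differences are wider: the mean of both arrays reached 2.86, the median over probe sets with 1 symbol, in 62 of the 81 (76.5%) and stayed under it in 19. Set against probe sets of like level, 10 members were at least 2 robust SD above the median of their bin (12.3%; 4.77% of all) and 6 at least 2 below (7.41%; 3.2% of all). Both ends therefore held a larger share of the members than of all probe sets, and these shares rest on few probe sets. Larger shares at both ends were not particular to the members, since microRNA hairpins, given below, had them too.

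**Figure D2:**
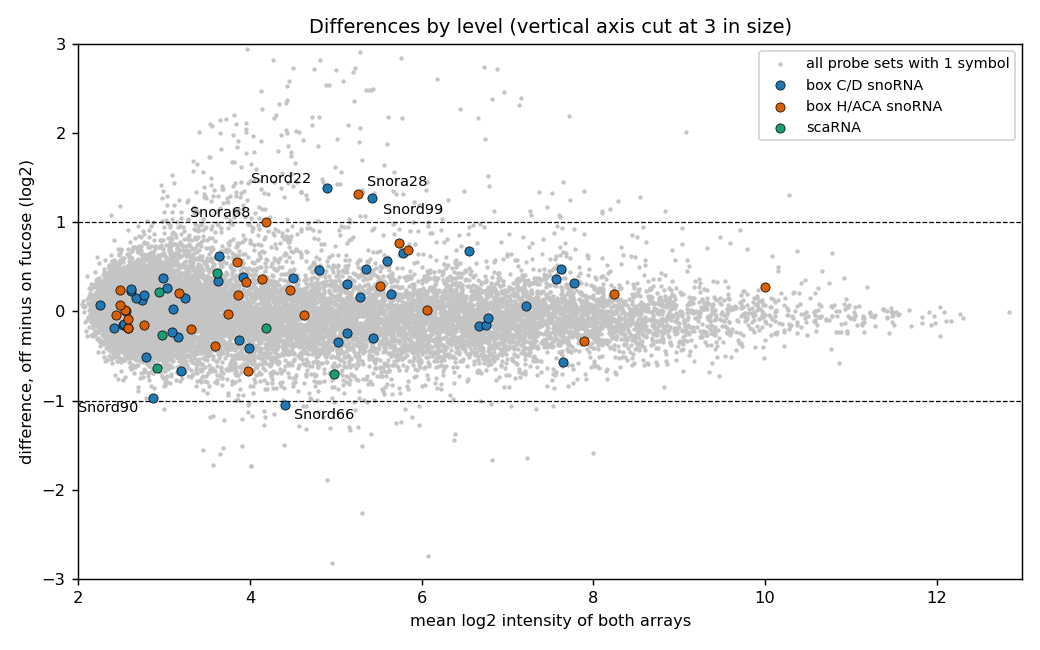
Difference in log2 intensity (off minus on fucose) against the mean log2 intensity of both arrays, for all 23521 probe sets with 1 symbol (grey) and the members by class (coloured); dashed lines mark 2-fold and the vertical axis is cut at 3 in size. Snord22, Snora28 and Snord99 lie above the upper line and Snord66 below the lower one, with Snora68 and Snord90 just inside.

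Among box C/D snoRNAs, Snord22 had the largest difference. It is the U22 RNA, which is needed to cut 18S ribosomal RNA from its precursor. Its intensity went from 18.4 on fucose to 48.0 off fucose, or from 4.20 to 5.58 in log2, which is 2.60-fold higher and 4.58 robust SD above the median of its bin. Snord99 went from 27.6 to 66.9, which is 2.42-fold higher and 4.68 robust SD above. These values were well apart on both arrays from the dim end, where the array medians were 6.99 and 7.04.

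Next came Snord17, which is longer than most of its class at 221 bases, with 6.21 on fucose and 6.89 off fucose (0.68). Snord92 had 5.45 and 6.11 (0.66). Snord15a had 3.33 and 3.95 (0.62). Snord87 had 5.32 and 5.88 (0.56), Snord47 had 5.11 and 5.59 (0.47) and Snord16a had 7.39 and 7.86 (0.47). Of these 6, Snord17, Snord92, Snord87 and Snord16a were at least 2 robust SD above their bins, whereas Snord15a (1.94) and Snord47 (1.94) were within.

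Snord66 went from 30.5 on fucose to 14.7 off fucose, or from 4.93 to 3.88 in log2, which is 2.07-fold lower. With loess or quantile normalisation it fell short of 2-fold. Snord90 went from 10.3 to 5.24, a 1.95-fold lower value that lay under the array median. Snord88a had 3.53 and 2.85 (-0.67), and Snord37 had 3.04 and 2.53 (-0.51). Snord89 was the brightest of the lower ones, with 7.93 on fucose and 7.36 off fucose (-0.56), or 2.09 robust SD below the median of its bin. Snord82, Snord72 and Snord58b had -0.41, -0.34 and -0.32, each within 2 robust SD of its bin.

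Of the 8 box C/D probe sets with the highest means, Snord89 and Snord16a were beyond 2 robust SD of their bins, in opposite directions, and the other 6 were within. Among those 6, Snord65 had 7.62 on fucose and 7.94 off fucose (0.32), and Snord104 had 7.38 and 7.74 (0.36). Snord71 had 7.18 and 7.25, Snord61 had 6.81 and 6.74, and Snord8 had 6.83 and 6.67. Snord13 is the U13 RNA, which acts on 18S ribosomal RNA and is known to be made from a promoter of its own, and no gene of the RefSeq table spans it. It had 6.75 on fucose and 6.58 off fucose (-0.17). Snord118, the U8 RNA needed for 28S and 5.8S ribosomal RNA, also has no spanning gene, and had 2.60 and 2.74, near the array medians. Snord89, with -0.56, also has no spanning gene.

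Among box H/ACA snoRNAs, Snora28, a guide for 18S ribosomal RNA, stood first. Its intensity went from 24.3 on fucose to 60.7 off fucose, or from 4.60 to 5.92 in log2, which is 2.50-fold higher and 4.39 robust SD above the median of its bin. Snora68 went from 12.9 to 25.7 and fell just short of 2-fold (3.69 to 4.68 in log2), which it passed with loess or quantile normalisation. Snora73b is a copy of the U17 RNA, which takes part in cutting the 18S precursor, and had 5.35 and 6.13 (0.77). Its neighbour Snora73a, of the same length (205 bases), had 3.77 and 3.96 (0.18). The copies are close relatives, and how far their probes tell them apart is not known here.

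Snora69 had 5.50 and 6.19 (0.69), Snora47 had 3.57 and 4.12 (0.55), and Snora61, Snora7a and Snora21 had 0.36, 0.33 and 0.29. The lower end of the class was shallower. Snora78 had 4.31 on fucose and 3.64 off fucose (-0.67), which was within 2 robust SD of its bin. Snora30 had -0.39 and Snora74a, known as U19, had -0.20. Snora75, Snora35 and both probe sets of Snora19, which hold identical values, had differences from -0.18 to -0.08 at levels near or under the array medians. No box H/ACA probe set was 2 robust SD below its bin, and 4 were 2 above.

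Of the 8 box H/ACA probe sets with the highest means, Snora28, Snora73b and Snora69 were at least 1.5-fold higher off fucose and the other 5 differed by less. Snora33 (probe set 17239753) went from 9.87 to 10.14 (0.27), while the other Snora33 one (17239751) went from 4.65 to 4.60 (-0.04). Snora23 had 8.14 and 8.34 (0.20), Snora44 had 6.05 and 6.07 (0.02), and Snora31 had 8.06 and 7.72 (-0.33).

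The scaRNA values were low and mostly lower off fucose. Scarna17, which guides changes in the U12 and U4 RNAs, was on a pair of probe sets. One (17357717) had 5.33 on fucose and 4.63 off fucose (-0.70), and the other (17355435) had 3.23 and 2.59 (-0.64), so both were lower off fucose. The dimmer one lay under the array median off fucose, so the size of its difference is uncertain. Scarna10, known as U85 and a guide for the U5 RNA, had 3.10 and 2.84 (-0.26). Scarna2, a guide for the U2 RNA, had 4.28 and 4.10 (-0.19). Scarna8 had 2.83 and 3.05 (0.22), and Scarna6, known as U88, had 3.40 and 3.83 (0.43). With 5 symbols in the class, its median of -0.23 rests in large part on Scarna17, which supplies 2 of the 6 probe sets, and was -0.19 with 1 probe set per symbol. Its sign turned (0.060) when the T cell markers were set equal on both arrays.

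Other small RNAs measured on the same arrays did not lean the same way. The 511 microRNA hairpin probe sets had a median difference of 0.01, with 51.1% above 0, and 2-fold or more separated the arrays in 2 that were higher and 3 that were lower off fucose. Most of them (383) lay under the median level, against 19 of the 81 snoRNA and scaRNA probe sets. At least 2 robust SD above their bins were 5.09% of the hairpins, and 6.85% were as far below (4.77% and 3.2% of all). With a mean of at least 5, 4 of 26 hairpins (15.4%) lay at each end. At that level the members had 29.6% above and 3.70% below, and all probe sets with 1 symbol had 5.81% and 3.76%. The 8 probe sets of 5S ribosomal, spliceosomal, Y and vault RNAs had a median of -0.12 and 1 above 0. Among them was the U3 RNA (Rnu3a), a box C/D snoRNA whose symbol the naming rule does not take, with 2.49 on fucose and 2.31 off fucose. No test of the difference between classes was possible with 1 array per group.

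**Figure D3:**
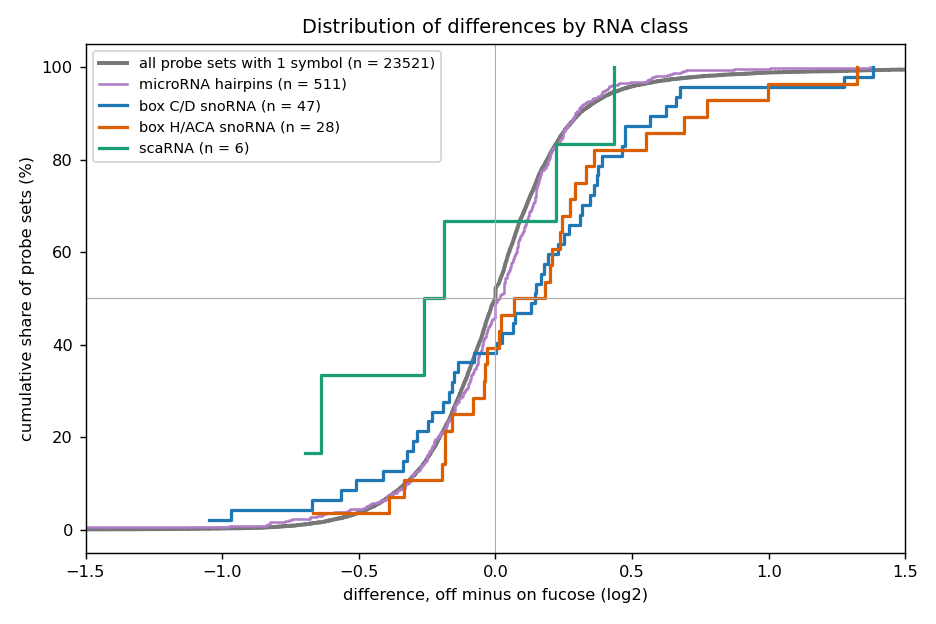
Cumulative share of probe sets (%) against the difference in log2 intensity (off minus on fucose) for the 3 member classes, microRNA hairpins and all probe sets with 1 symbol. The box C/D and box H/ACA curves cross 50% near 0.14 and 0.13, to the right of the microRNA (0.01) and all-probe-set (0) curves, and the scaRNA curve (6 probe sets) crosses it near -0.23.

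RefSeq lengths ran from 48 to 221 bases in box C/D (median 68), from 56 to 205 in box H/ACA (median 118.5) and from 61 to 248 in scaRNAs (median 71). These are lengths of RefSeq entries, and whether each entry covers the whole RNA was not checked. Entries such as Snora19 (56 bases), Scarna2 (61) and Scarna10 (71) count as short here and may not hold the full RNA. The 29 probe sets with entries of at least 100 bases had a median difference of 0.20 with 20 above 0. The 52 with shorter entries had 0.04 with 28 above 0. Spearman's rho between length and difference was 0.22 across the 81 probe sets and 0.13, 0.14 and 0.64 within box C/D, box H/ACA and scaRNAs, the last over 6 probe sets. These describe probe sets that share 2 arrays and differ in level as well as in length.

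The genes that span the snoRNAs included ribosomal protein genes, translation factor genes, noncoding host genes and others. Of the 78 symbols, all were found in the RefSeq table (GRCm38.p6), 68 lie within exactly 1 other gene, 6 within several and 4 within none. The 68 lie in 54 genes, 52 of the symbols in protein-coding genes and 16 in long noncoding RNA genes, and 18 lie in genes of ribosomal proteins. The table gives no strand, so a spanning gene on the opposite strand is counted too. For 60 member probe sets the spanning gene had a probe set of its own, 44 genes in all, and the one with the highest mean was used where there were several.

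In 3 of the 60 pairs the difference of the small RNA and that of its gene were 2-fold or more apart. The 44 genes ran from -0.44 to 0.96, none was 2-fold apart between the arrays, and over the 60 pairs their median was 0.07 against 0.17 for the snoRNAs. Snora28 stood furthest above its gene. Eif5, which encodes a translation initiation factor, had 7.95 on fucose and 7.51 off fucose (-0.44), while Snora28 within it had 1.32. Snord22 differed by 1.38 and Snhg1, the noncoding gene that spans it, went from 7.14 to 7.47 (0.33). In the other direction, Ncapd2, a condensin gene of dividing cells, had 5.60 and 6.55 (0.96), while Scarna10 within it had -0.26. Snord88a (-0.67) lay in 2410002F23Rik, which had 0.29. Snord90 and its gene were both lower off fucose: Rc3h2, which encodes an RNA-binding ubiquitin ligase, had 7.28 and 6.86 (-0.42). Among the other named members, Snord17 (0.68) lay in the sorting nexin gene Snx5 (0.22), Snord15a (0.62) in the ribosomal protein gene Rps3 (-0.05), Snora69 (0.69) in Rpl39 (-0.04) and Snora31 (-0.33) in Tpt1 (0.34). Rpl39 had only 3.24 on fucose and 3.19 off fucose, near the array medians, so its difference says little. A dimmer Tpt1 probe set went from 5.41 to 5.32 (-0.09), which is the sign of Snora31. Eif4g1, the initiation factor gene around Snord66, had no probe set of its own under the naming rule.

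Differences had the same sign as the gene's in 30 pairs and the opposite sign in 30. Some of the genes, such as Rpl39, Snhg18 and Htr2c, lay near or under the array medians. A sign can also turn with the probe set taken for the gene, as for Tpt1. In 13 of the 60 pairs the small RNA and its gene differed by 1.5-fold or more. Across the 60 pairs, which share the arrays and in part the genes, Pearson's r was 0.085 and Spearman's rho was 0.035. For the 13 pairs in noncoding genes the signs matched in 10, with a median of 0.18 for the snoRNAs and 0.33 for the genes. For the 47 pairs in protein-coding genes they matched in 20, with medians of 0.17 and -0.01.

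**Figure D4:**
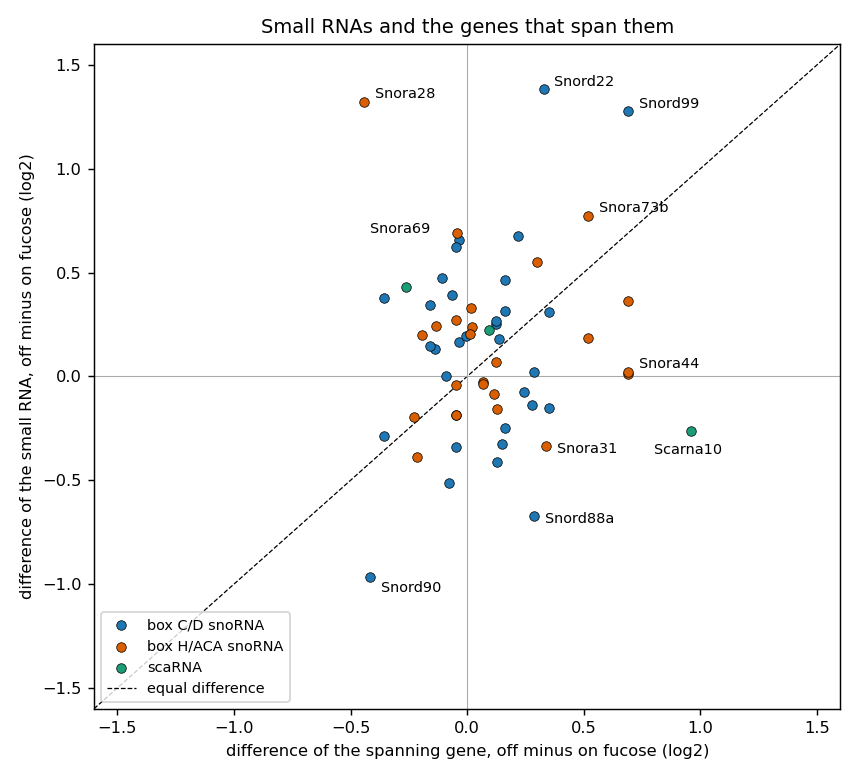
Difference of each small RNA (vertical) against that of the gene that spans it (horizontal), both off minus on fucose in log2, for 60 probe sets; the dashed line marks equal differences. The points show no common slope (Pearson's r 0.085), with Snora28 far above the line and Scarna10 far below it.

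SnoRNAs from 1 gene could differ widely. Snhg12, a noncoding host, holds 4 members and itself went from 6.06 on fucose to 6.75 off fucose (0.69). Within it, Snord99 had 1.28, Snora61 had 0.36 (3.96 to 4.32), Snora44 had 0.02 and Snora16a had 0.01 (2.54 to 2.55). The 4 members thus spanned more than 2-fold, the only gene of 11 with several members where this was so. Of the 11 genes, 7 held members of 1 sign and 4 held members of both signs. Wdr43, a gene of the small-subunit processome, had -0.04, with Snord92 at 0.66 and Snord53 at 0.17. Snhg3, the noncoding host of Snora73a and Snora73b, had 4.56 and 5.07 (0.52). In Nop58, which encodes a box C/D core protein, Snord70 and Snord11 had 0.25 and 0.27, with 0.12 for the gene.

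Noncoding host genes, a list chosen by name, went both ways. Of 20 measured, 12 were higher off fucose and 8 lower, none by 2-fold, with a median of 0.15, beside 47.8% above 0 and a median of 0 over all probe sets with 1 symbol. Several of them, such as Meg3, Rian and Snhg14, lay near or under the array medians. With 1 probe set per gene, the largest differences were in Snhg5 (0.81), Snhg12 (0.69), Snhg15 (3.20 to 3.80, 0.60) and Snhg3 (0.52). Probe sets of the same gene disagreed for Snhg17 (0.88, -0.07 and -0.20, the last being the brightest) and Snhg11 (0.14 and -0.59). The bright host genes Epb41l4aos (9.87 to 10.14), Zfas1 (9.32 to 9.49) and Snhg6 (9.05 to 9.41) had 0.26, 0.16 and 0.37.

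Transcripts of the core protein genes that were measured differed by less than 2-fold. Of the box C/D core genes, Nop56 had 8.17 on fucose and 8.31 off fucose (0.14), and Nop58 had 7.23 and 7.35 (0.12). Snu13, whose protein binds the kink in box C/D RNAs, had 7.96 and 8.69 (0.73), while a dimmer Snu13 probe set went from 2.94 to 2.45 (-0.49). Fbl, the methyltransferase, was not on a probe set of its own. Of the box H/ACA core genes, the pseudouridine synthase gene Dkc1 had 6.03 and 6.05 (0.03), Nop10 8.84 and 8.94 (0.10), Nhp2 7.54 and 7.63 (0.09) and Gar1 4.46 and 4.41 (-0.05).

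Factors of assembly and processing showed no common direction. Of 18 measured, 9 were higher and 9 lower, none by 2-fold, with a median of 0.0024. Over all probe sets with 1 symbol 47.8% were above 0, with a median of 0. Among those with a mean of at least 5 it was 37.9%, with a median of -0.07. Tent4b, a poly(A) polymerase that tags RNA for trimming, had 6.50 and 5.99 (-0.51), the H/ACA assembly factor gene Naf1 had 2.83 and 2.37 (-0.46), and the box C/D assembly factor genes Nufip1 and Znhit3 had 0.34 and 0.33. Of 28 genes of ribosomal RNA synthesis and ribosome assembly, 11 were higher and 17 lower, none by 2-fold, with a median of -0.04. Over all 40 probe sets of these genes, 21 were higher and 19 lower, with a median of 0.03, so the list has no settled direction. The probe sets of Taf1d, which has 11 of them, ran from -0.15 to 0.89. Utp15 had 5.24 and 5.66 (0.41), and the RNA polymerase I factor genes Taf1a and Taf1c had -0.52 and -0.42. Nat10, whose product works with U13 to acetylate 18S ribosomal RNA, had 6.26 and 5.94 (-0.32).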

How the data were processed

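The authors deposited 1 intensity per probe set and array, summarised with RMA per the submitters' processing notes. Version, settings and genome build are not given in the sources used here. Since they span 2.74 to 9512, they were read as linear and log2 was taken, although RMA output is usually logged. Sorted from low to high, the arrays' log2 values were 0.028 apart on average, so a shift of all RNAs one way would not be visible. Arrays have no read depth, and 1 array per group limits the precision.

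Names came from the platform annotation (23521 probe sets with 1 symbol, 1814 with several, 16010 not listed). No intensity filter was used, since a filter on the mean passes members through the array where they are high. Spanning genes and lengths came from RefSeq by gene ID, without strand and with no host coordinates printed other than the start-site windows.

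Members and lists were chosen with earlier results of these data known. Named were, in each class, the 8 largest differences each way and the 8 highest means (3 for scaRNAs), symbols whose probe sets differ in sign with one at least 1.5-fold, core proteins, the 4 largest differences per list and host genes of named members. Zfas1, Epb41l4aos, Snhg6, Snord118, Snora73a, Snora16a, Snord53, Snord70, Snord11, the dimmer Snora33 and Tpt1 probe sets, Rnu3a, Snhg17, Snhg11, Taf1d, the host genes named as dim and the cDC1 markers were added for context after their values were seen. Lists used 1 probe set per gene, the one with the highest mean. Differences and counts were computed with Python 3.11.15 and pandas 2.3.3, with counting code tested on simulated data. The alternatives were other feature units, filters, normalisations (loess with statsmodels 0.14.6, quantile), centrings, a pseudocount and thresholds.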

Additional observations from a re-analysis of the deposited data

How the results depend on the processing

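No paired analysis was possible because a single array stands for each group, which also leaves none to take out. Dim members are limited by signal near the low end of the arrays. Of 90 comparisons with an alternative, 69 kept their direction and stayed close (a count within 1.5 times, a median within 0.1). Using 1 probe set per symbol, the mean of probe sets, the filter at the median and median centring moved no count or median beyond that. Several of these could not differ, and they count among the 69. The median over all probe sets with 1 symbol was already 0, so median centring changed nothing. Box C/D has 47 probe sets for 47 symbols, so both settings per symbol left it as it was. All 6 scaRNA probe sets pass the filter at the median. The tolerance of 0.1 is close to the size of the medians: a pseudocount of 8 took the box C/D median from 0.14 to 0.07 and the box H/ACA median from 0.13 to 0.06. The count of box C/D probe sets at least 2-fold higher (2) was 1 with a mean of at least 5, 5 at 1.5-fold and 0 at 3-fold, and that of lower ones (1, Snord66) was 0 with loess, quantile normalisation, a pseudocount of 8, T cell centring, a mean of at least 5 or 3-fold, and 3 at 1.5-fold. The count of box H/ACA probe sets higher (1) was 2 with loess or quantile normalisation, where Snora68 joined, 3 with T cell centring, 4 at 1.5-fold and 0 at 3-fold, and that of lower ones (0) was 1 at 1.5-fold. The scaRNA count of lower probe sets (0) was 2 at 1.5-fold. T cell centring, which adds 0.29 to every difference, gave medians of 0.43 for box C/D, 0.41 for box H/ACA and 0.060 for scaRNAs, where the sign turned, and 87.4% of all probe sets with 1 symbol were then above 0. With a mean of at least 5, the box H/ACA median was 0.28 over 8 probe sets and no scaRNA was left. Stricter thresholds and filters leave fewer probe sets that can pass. For the rest, the cause was not tested.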

Other observations

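Another 46 probe sets name a snoRNA or scaRNA of the same symbol forms together with another gene and lie outside the naming rule. They hold 31 distinct pairs of values, since 16 probe sets of the Snord116 cluster, known from brain, have the same values (2.61 on fucose and 2.63 off fucose). Of the 46, none was at least 2-fold higher off fucose (1.16% of all probe sets with 1 symbol) and 1 was at least 2-fold lower (0.255% of all). That one names Snord14e and Hspa8, a constitutive heat shock chaperone gene that hosts it, and went from 1439 to 568 in intensity, which is 2.54-fold lower (-1.34). The brightest probe set that names Hspa8 alone had 10.61 on fucose and 10.57 off fucose (-0.04). The next largest were Snora5c with Tbrg4, which went from 5.39 to 6.31 (0.92), where Tbrg4 alone differed by 0.06, and Snord15b with Rps3, which went from 4.73 to 5.55 (0.82), where Rps3 alone had 11.26 and 11.22 (-0.05). These were chosen after their values were seen, and such a probe set cannot tell the snoRNA from the other gene it names.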
